A study of Rattus norvegicus with 6 samples.

Results

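Reads of 3 cytoskeletal genes were followed in cultured rat vascular smooth muscle cells: Acta2 (ENSRNOG00000058039), Actb (ENSRNOG00000034254) and Vim (ENSRNOG00000018087), 3 of the 32883 genes in the deposited tables. They were chosen by identifier, as smooth muscle actin, beta actin and vimentin, and all 3 were among the 12044 genes that passed the filter on low counts. Poly(A) RNA of these cells, labelled as taken from vessel, was sequenced in 2 groups of 3 samples. Cells of the sg-MIAT group, labelled with the genotype MIAT overexpression, carried a CRISPR-dCas9 system meant to raise the long non-coding RNA MIAT. Cells of the sg-U6 group, labelled WT, carried a control guide in its place. The dCas9 protein cannot cut DNA, and the labels give its system to both groups, so the guide is what differs. Nothing in the labels says whether samples numbered 1 to 3 within a group were separate cultures, animals or clones, and p-values cover only the variation among these samples, some of which may be technical.

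Actin filaments help carry the contractile force and the shape of a smooth muscle cell. Acta2 encodes the smooth muscle alpha isoform, which assembles with smooth muscle myosin in the contractile apparatus and is the most widely used marker of the differentiated, contractile state. Actb encodes cytoplasmic beta actin, which builds the cell cortex and the leading edge of moving cells and is often used as a loading reference in PCR and blotting. Vim encodes vimentin, the intermediate filament protein of mesenchymal cells, which forms a stress-bearing network around the nucleus and is commonly high in the proliferative, matrix-producing state of smooth muscle cells. In vascular injury and in culture, smooth muscle cells can pass from the contractile to that synthetic state, and the loss of Acta2 transcripts is a standard readout of the passage. Transcription of Acta2 depends on serum response factor, which binds CArG boxes together with cofactors of the myocardin family. Actb is also a known target of serum response factor.

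The upstream windows of Acta2 and Vim are shown because these genes had one. Whether motifs in them bear on the Acta2 difference was not tested. Actb, also a serum response factor target, had overlapping groups and no window. Sequences are from RefSeq, build GRCr8, the 250 bases before the annotated start, 5′ to 3′ on the gene's strand. That build is not the one named for the deposited data, Rnor_6.0, and the table used matched 2 of the 3 genes, all but Actb. The Acta2 window is GRCr8 chr1:241172504-241172753, minus strand, and the Vim window is GRCr8 chr17:81577011-81577260, plus strand. Capitals mark CArG boxes, the MCAT element (GGAATG, a site of TEAD factors) and TATAAA, the only form searched of the core promoter element called the TATA box.
Acta2: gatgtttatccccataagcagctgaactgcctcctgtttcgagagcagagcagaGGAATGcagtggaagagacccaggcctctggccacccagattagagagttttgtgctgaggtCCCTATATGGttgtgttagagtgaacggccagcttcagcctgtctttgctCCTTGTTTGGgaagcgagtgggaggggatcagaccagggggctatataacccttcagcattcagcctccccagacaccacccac
Vim: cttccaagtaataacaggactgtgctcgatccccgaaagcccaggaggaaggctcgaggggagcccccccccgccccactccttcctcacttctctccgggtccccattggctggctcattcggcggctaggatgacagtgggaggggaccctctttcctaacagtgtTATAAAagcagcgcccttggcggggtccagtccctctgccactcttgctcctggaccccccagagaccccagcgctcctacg

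The strict CArG box, with A or T at all 6 core positions, matched neither window, and 1.5% of all 33469 windows of this length hold it. A CArG box with exactly 1 G or C in the core, the form known for Acta2 and added after the windows had been seen, matched Acta2 at 2 places. These are CCCTATATGG at -134 to -125 and CCTTGTTTGG at -84 to -75, counted from the last base before the start as -1. This form is present in 6.84% of all windows and was not found in the Vim window. It was chosen with Acta2 in mind, so its match there is not a test. The MCAT element lay at -196 to -191 in Acta2 (12.1% of all windows hold it on either strand). The exact string TATAAA lay at -82 to -77 in Vim (12.9% of windows), and a GC box (GGGCGG, 30.5% of windows) matched its other strand at -180 to -175. Other TATA forms were not searched, and the Acta2 window holds the near form tatataa, left unmarked. A match describes letters in the window, and no binding was measured here.

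**Figure D1:**
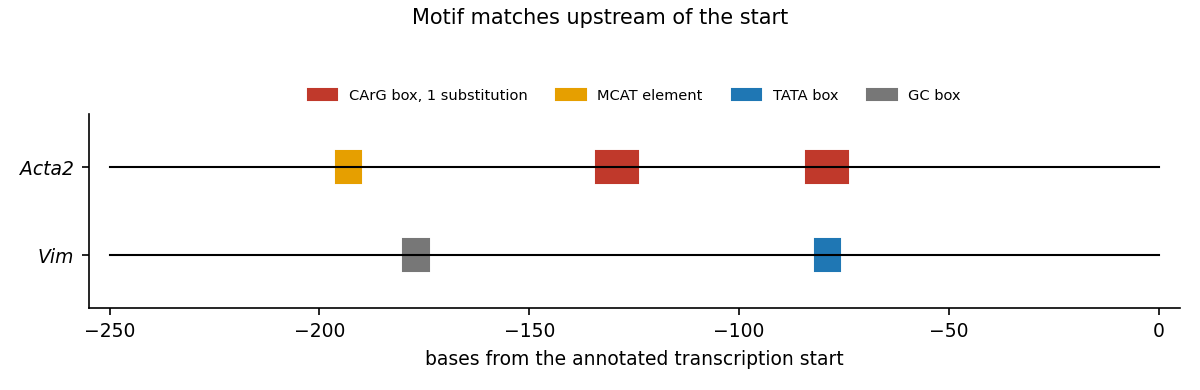
Positions of the motif matches in the 250 bases before the annotated start of Acta2 and Vim, with distance from the start in bases on the x axis and each motif as a coloured block. Acta2 holds 2 CArG boxes with 1 core substitution and an MCAT element, and Vim holds the exact string TATAAA and a GC box. Other TATA forms were not searched in either window.

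Libraries held 13128977 to 18257865 counts, and TMM factors, which correct totals for composition, ran from 0.891 to 1.08. On the first principal component, with 65.2% of the variance, sg-MIAT 1 and sg-U6 1 lay at -59.9 and -69.7 and the other 4 libraries between 11.1 and 73.9. The 3 genes together took 1.40% to 2.00% of all counts, so counting error was small beside the spread between libraries: the lowest count, 21180 for Actb in sg-MIAT 1, has a counting coefficient of variation of 0.687%. Values below are CPM after TMM scaling, that is, counts per 1000000 of the scaled library total. They are not divided by gene length, so levels are not compared between genes. The files pair no identifier with a symbol, and the targeted transcript Miat, other smooth muscle genes, other actins and markers of other cell types were not analysed here. The labelled cell type was therefore not checked here. The 3 genes ranked from 5 to 81 by reads among all genes in each library, which alone does not identify a cell type. Actin genes share long stretches of coding sequence, and how reads common to several actins were assigned is not known here; the Acta2 and Actb values carry that uncertainty.

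Acta2 was lower in every sg-MIAT library than in any sg-U6 library. Its level was 2364, 3646 and 2877 CPM in libraries 1, 2 and 3 of sg-MIAT, against 5908, 4584 and 4611 CPM in those of sg-U6. The groups did not overlap, with sg-MIAT 1 the lowest and sg-U6 1 the highest of the 6, and the lowest control lay 1.26 times above the highest sg-MIAT library. Group means were 2962 ± 645 CPM with the MIAT guide and 5034 ± 757 CPM with the control guide (SD, n = 3 each), 41.2% lower with the MIAT guide. Fewer cells with Acta2 transcripts and less Acta2 RNA per cell cannot be told apart in bulk RNA. The raw counts were 27655, 66931 and 48293 with the MIAT guide against 84004, 65326 and 75300 with the control guide. By rank among all genes in a library, Acta2 stood between 17 and 50 in sg-MIAT and between 9 and 17 in sg-U6.

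This Acta2 difference did not pass the test across all genes. The log2 fold change was -0.77 ± 0.26 (SE), negative meaning lower in sg-MIAT, with a 95% interval of -1.39 to -0.14, which is 0.588-fold with an interval of 0.381 to 0.908. In edgeR's quasi-likelihood test the unadjusted p was 0.0238 and the Benjamini-Hochberg adjusted p was 0.9995. Of all genes tested, 0% passed at an adjusted p under 0.05 in edgeR (0 of 12044, with 477 or 3.96% at an unadjusted p under 0.05), so 0 of the 3 genes called is the background rate. At an unadjusted p under 0.05 and lower in sg-MIAT, 1.98% of genes were found, and 220 genes had a smaller p than Acta2. Of the 3 genes only Acta2 had groups without overlap, which 9.04% of tested genes had in either direction and 4.39% with sg-MIAT the lower group; Acta2 shared that separation with 528 other genes. The exact two-sided permutation test of Acta2 over samples gave p = 0.1, the smallest that 3 against 3 can give.

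DESeq2 gave Acta2 a log2 fold change of -0.76 ± 0.25 (SE) and an adjusted p of 0.267. DESeq2 called 0.443% of 13535 genes, 60 in all, and none of the 3 genes was among them. With the replicate number as a block, DESeq2 called 130 genes (1.01% of 12906), and the adjusted DESeq2 p of Acta2 was 0.0979, the lowest of all settings tried, which ran up to 1. All 3 same-numbered pairs had less Acta2 in sg-MIAT, as groups that do not overlap must. The log2 differences were -1.32, -0.33 and -0.68 for numbers 1, 2 and 3, so the pair numbered 1 differed most and the pair numbered 2 least. Without both libraries numbered 1 the edgeR log2 fold change was -0.49, with an adjusted p of 0.627.

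**Figure D2:**
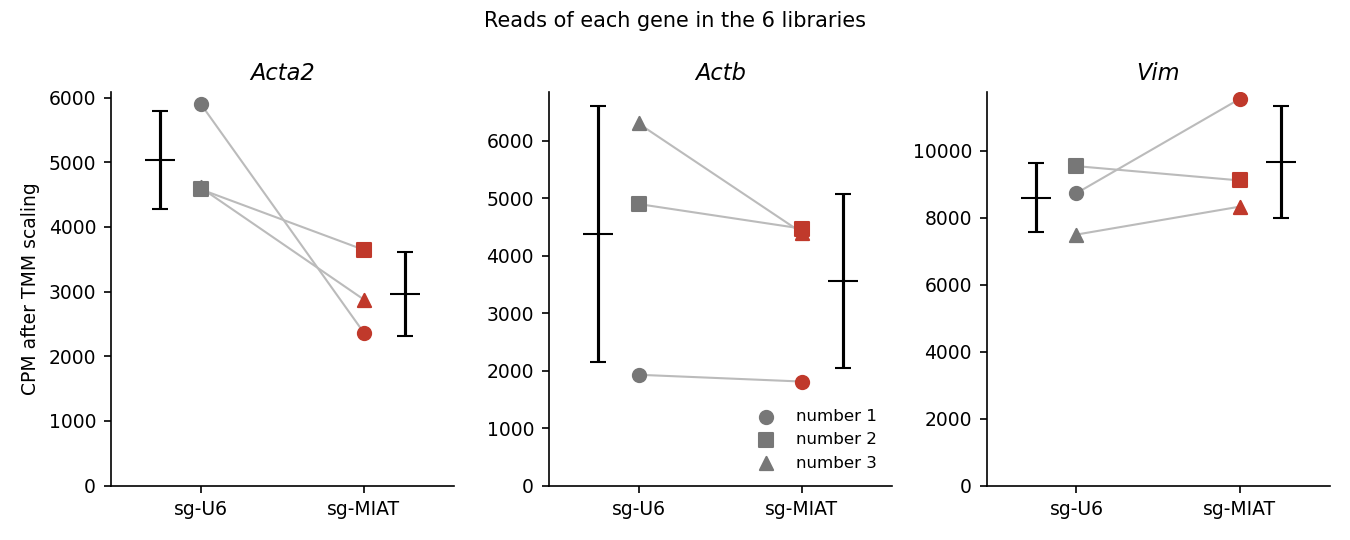
CPM after TMM scaling (y axis, from 0) of Acta2, Actb and Vim in the 6 libraries by guide (x axis). Points are libraries, marker shapes are replicate numbers joined across guides by grey lines, and black bars are the mean and SD of 3 libraries. Acta2 is between 2364 and 3646 in sg-MIAT and between 4584 and 5908 in sg-U6, while both Actb libraries numbered 1 lie at 1810 and 1928, whichever guide they carry.

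Actb was low in both libraries numbered 1, whichever guide they carried. Its level was 1810, 4469 and 4396 CPM in libraries 1, 2 and 3 of sg-MIAT, against 1928, 4897 and 6297 CPM in those of sg-U6. The lowest of the other 4 lay 2.28 times above the higher of the pair numbered 1. The groups overlapped through sg-U6 1, while the other 2 controls lay above all 3 sg-MIAT libraries. Means were 3559 ± 1514 CPM with the MIAT guide and 4374 ± 2231 CPM with the control guide (SD, n = 3 each), and SDs were 42.6% and 51.0% of the means. The same 2 libraries, sg-MIAT 1 and sg-U6 1, stand apart on the first principal component; the part of that structure in the Actb values was not tested.

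Between the guides, the Actb log2 fold change was -0.30 ± 0.53 (SE), with an unadjusted p of 0.596 and an adjusted p of 0.9995 in edgeR. The 95% interval of the fold ran from 0.334 to 1.98, or from 0.605 to 1.17 in the fit blocked by replicate number, at an adjusted edgeR p of 0.813. The exact two-sided permutation p was 0.5. Without the block its sign turned when single libraries were left out: the log2 fold change was 0.011 without sg-MIAT 1 and 0.061 without sg-U6 3, and -0.33 without both libraries numbered 1. Within same-numbered pairs Actb differed by -0.09, -0.13 and -0.52 on the log2 scale for numbers 1, 2 and 3, lower in sg-MIAT in each, which is 0.939-, 0.913- and 0.698-fold, so the pair numbered 3 differed most.

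Vim took the most reads of the 3 genes and varied least. Its level was 11560, 9120 and 8338 CPM in libraries 1, 2 and 3 of sg-MIAT, against 8740, 9547 and 7503 CPM in those of sg-U6. The highest library was sg-MIAT 1 and the lowest sg-U6 3, and the other sg-MIAT libraries lay inside the control range. Means were 9673 ± 1681 CPM with the MIAT guide and 8597 ± 1030 CPM with the control guide (SD, n = 3 each). The log2 fold change was 0.17 ± 0.26 (SE), and its adjusted p in edgeR was 0.9995, a fold of 1.13 with a 95% interval of 0.730 to 1.73. The exact two-sided permutation p was 0.5. Pairs differed in direction, by 0.40, -0.07 and 0.15 on the log2 scale for numbers 1, 2 and 3, and without sg-MIAT 1 the log2 fold change was 0.014.

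**Figure D3:**
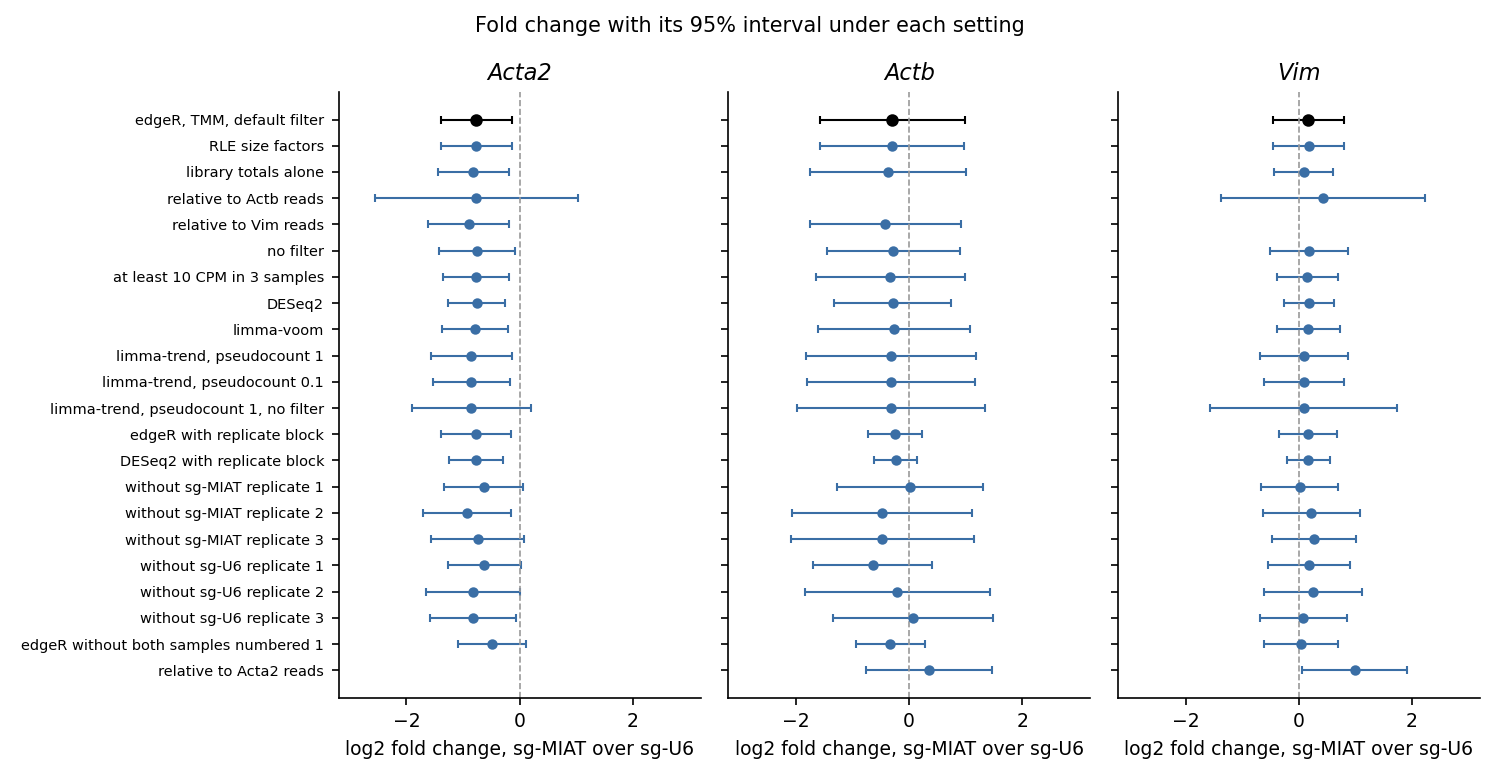
Fold change on the log2 scale (x axis, above 0 where higher in sg-MIAT) of Acta2, Actb and Vim with its 95% interval under each setting (y axis), the reported fit in black. Acta2 lies below 0 throughout, with intervals that reach 0 under some settings. Actb crosses 0 when sg-MIAT 1 or sg-U6 3 is left out or when it is set against Acta2 reads. Vim estimates stay above 0, but their intervals span 0 under every setting except the one against Acta2 reads.

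The 3 genes divided their variation in different ways. Of the sum of squares of log2 CPM over the 6 libraries, the guide took 76.2% for Acta2, 3.24% for Actb and 18.1% for Vim. The replicate number, with 1 more degree of freedom than the guide, took 2.57% for Acta2, 94.8% for Actb and 56.8% for Vim. Pooled over all tested genes the guide took 16.3% and the number 61.6%, a split nearer to that of Vim and Actb than to that of Acta2. A test of the number as a term in the blocked edgeR fit, added after seeing the data, gave Actb an unadjusted p of 0.00232 and an adjusted p of 0.106. For Acta2 the adjusted p of the number was 0.911, and for Vim 0.621. Of all genes, 24.8% had an unadjusted p under 0.05 for the number, and 235 had a smaller p than Actb. After adjustment 0 were under 0.05, and the smallest value of any gene was 0.106. Actb shared it with those 235 genes and with genes of larger unadjusted p.

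In total spread, Actb stood high and Vim low. The SD of log2 CPM over the 6 libraries was 0.75 for Actb, 0.49 for Acta2 and 0.21 for Vim, against a median of 0.37 over all tested genes. The Actb SD exceeded that of 81.6% of the other tested genes, and that of 122 of the 134 other genes with a mean of at least 1000 CPM. The Vim SD exceeded that of 22.9% of the other tested genes and of 16 of those 134. Acta2 lay between, above 64.4% of genes over all 6 libraries, but above only 34.5% for the SD within groups, which was 0.27. The within-group SD was 0.83 for Actb and 0.21 for Vim.

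**Figure D4:**
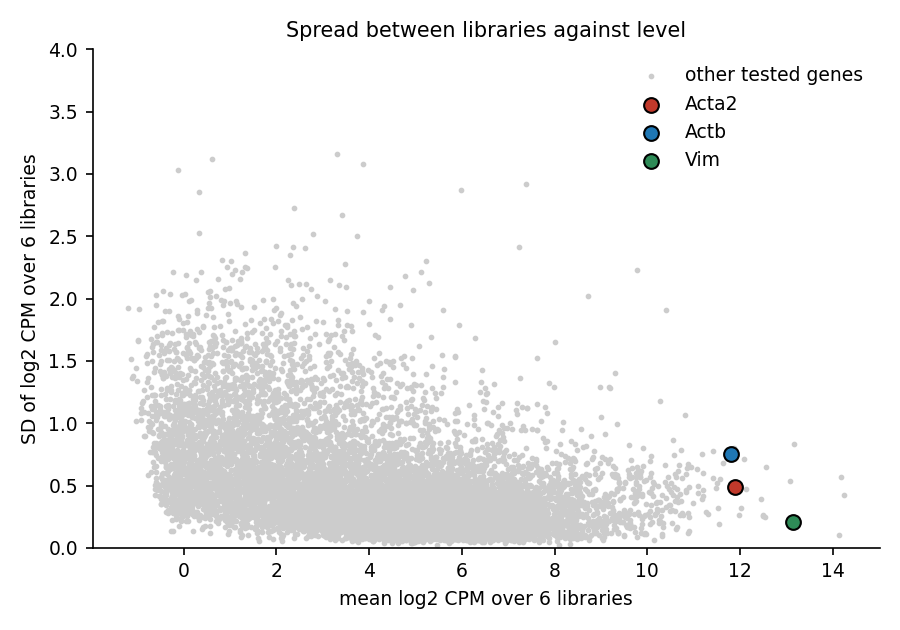
SD of log2 CPM over the 6 libraries (y axis) against mean log2 CPM (x axis) for each tested gene, with Acta2, Actb and Vim as large coloured points. At similar read levels Actb has an SD of 0.75 and Acta2 of 0.49, and Vim, which takes more reads, has an SD of 0.21.

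Ratios between the genes within a library need no scaling between libraries. Gene length is fixed within a ratio, so a ratio is compared between libraries only and is not a ratio of transcript numbers. Acta2 reads per Vim read set the contractile marker against the mesenchymal filament: 0.204, 0.400 and 0.345 in libraries 1, 2 and 3 of sg-MIAT, against 0.676, 0.480 and 0.615 in those of sg-U6. This ratio did not overlap between the groups. It holds the same Acta2 counts, already without overlap after TMM scaling, and is not a separate result. Its mean was 0.316 with the MIAT guide and 0.590 with the control guide, and on the log2 scale -1.72 ± 0.51 and -0.78 ± 0.25 (SD, n = 3 each), a log2 difference of -0.94 ± 0.33 (SE). The exact two-sided permutation test gave p = 0.1, the smallest possible, and 0.3 after Benjamini-Hochberg adjustment over the 3 ratios. The log2 difference was -1.72, -0.26 and -0.83 within pairs numbered 1, 2 and 3, and -0.55 without both libraries numbered 1.

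Acta2 reads per Actb read, the quantity an assay normalized to beta actin would follow, overlapped between the groups. The ratio was 1.31, 0.816 and 0.654 in libraries 1, 2 and 3 of sg-MIAT, against 3.06, 0.936 and 0.732 in those of sg-U6. Both libraries numbered 1 were high, and sg-U6 1 was the highest by far. The log2 difference was -0.53 ± 0.70 (SE, n = 3 each) with an exact two-sided permutation p of 0.6, also after adjustment, and it turned to 0.10 without sg-U6 1. Each same-numbered pair was lower in sg-MIAT, by -1.23, -0.20 and -0.16 on the log2 scale for numbers 1, 2 and 3.

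Actb reads per Vim read were 0.157, 0.490 and 0.527 in libraries 1, 2 and 3 of sg-MIAT, against 0.221, 0.513 and 0.839 in those of sg-U6. Again the libraries numbered 1 stood apart, here as the lowest in each group. The log2 difference was -0.41 ± 0.80 (SE, n = 3 each), with an exact two-sided permutation p of 0.6, before and after adjustment. It turned to 0.16 without sg-MIAT 1 and to 0.030 without sg-U6 3. Each same-numbered pair was lower in sg-MIAT, by -0.49, -0.07 and -0.67 on the log2 scale for numbers 1, 2 and 3, and the difference was -0.37 without both libraries numbered 1.

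**Figure D5:**
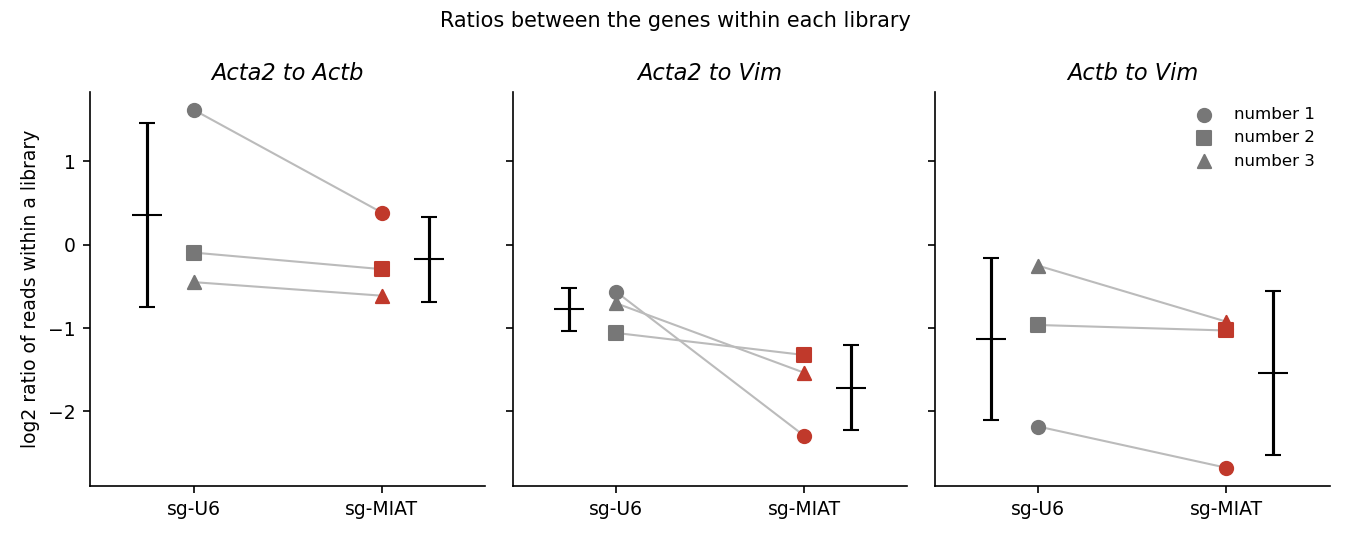
Log2 ratio of reads within a library (y axis) for Acta2 to Actb, Acta2 to Vim and Actb to Vim, by guide (x axis). Points are libraries with marker shapes for replicate numbers, grey lines join equal numbers, and black bars are the mean and SD of 3 libraries. Only the Acta2 to Vim panel has groups that do not overlap, and in both panels with Actb the libraries numbered 1 lie apart.

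The choice of reference gene moved the median fold change over tested genes. With TMM scaling the median log2 fold change over tested genes was -0.03 and 54.6% were lower in sg-MIAT. Taking Actb reads as the library size moved the median to 0.15 and left 31.5% lower, and taking Vim reads moved it to -0.18 with 76.7% lower. The edgeR log2 fold change of Acta2 was -0.77 with TMM, -0.77 against Actb and -0.90 against Vim. Averaged as log2 values, the Acta2 to Actb ratio within libraries differed by only -0.53, as given above. Without the log2 scale, group means of that ratio were 0.925 with the MIAT guide and 1.58 with the control guide. The second mean includes sg-U6 1 at 3.06. The unadjusted edgeR p of Acta2 was 0.374 against Actb, 0.0199 against Vim and 0.0238 with TMM. The adjusted edgeR p was at least 0.99 in each of these 3 fits.

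Among 3316 other genes with a mean of at least 50 CPM, the gene whose log2 CPM followed each of the 3 most closely over the 6 libraries was found by Pearson's r. For Acta2 it was ENSRNOG00000015633 (r = 0.975), at 101.7 to 115.2 CPM with the MIAT guide and 123.3 to 130.0 CPM with the control guide. For Actb it was ENSRNOG00000000718 (r = 0.998), which shares its order of libraries over a far narrower range, from 74.0 CPM in sg-MIAT 1 to 87.4 in sg-U6 3. For Vim it was ENSRNOG00000019822 (r = 0.981), highest in sg-MIAT 1 at 120.1 CPM and lowest in sg-U6 3 at 74.7. An r above 0.9 was reached by 328 genes for Actb (9.89%), 18 for Acta2 (0.543%) and 25 for Vim (0.754%). An r below -0.9 was reached by 728, 20 and 15 genes in that order. The Actb profile was shared, in either sense, by many more genes than those of Acta2 and Vim. These are correlations over 6 libraries that share a dominant component and are given as a description.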

How the data were processed

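Strand-specific poly(A) libraries were read as paired ends, per the labels' protocols. HISAT2, DESeq2 and the build Rnor_6.0 are named, without versions, per the submitters' processing notes. For the read counter, annotation release and strand setting: not given in the sources used here. The authors deposited raw counts per Ensembl gene, 1 column per sample. Their second table, named for FPKM, holds deposited CPM without gene length: 99.985% of values above 0 gave whole reads within 0.01, and edgeR on those reads called 0 genes.

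The main test was edgeR 4.0.16 (R 4.3.3) on counts, with TMM, a minimum count of 10 and minimum total of 15, no term besides the guide, and Benjamini-Hochberg adjustment over 12044 genes at 0.05. The edgeR SEs are the absolute log2 fold change over the square root of F. Those of DESeq2 are its own, and those of the ratios come from the variances within groups. Alternatives used DESeq2 1.42.0 and limma 3.58.1 (voom, and trend on log2 of CPM plus 1 or 0.1), other scalings and filters, the replicate block and left-out libraries. The edgeR, DESeq2 and limma-voom fits were tested on simulated counts that held a guide effect but no effect of the replicate number. The simulation therefore does not cover that part of the variation in these libraries. Libraries were no duplicates (chi-square per degree of freedom at least 20.8). Deviations of same-numbered libraries correlated at 0.730, 0.126 and 0.334, each over 0.1, the threshold set for using the numbers as pairs. Libraries of different numbers were not compared in this way, so these values do not establish pairing, and the labels state none. The numbers served as pairs only in the blocked alternatives and the same-numbered differences, not in the main test.

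The genes, lists and alternatives were chosen with earlier results of these data known. The 3 symbols were assigned by identifier. The reference table (47357 genes, GRCr8) holds 0 Ensembl identifiers, so the lists of smooth muscle, actin, serum response factor, intermediate filament and other cell type genes were not analysed here. Genes were named by rule: the 3 members, and for each the nearest gene by Pearson's r of log2 CPM (prior count 2) among genes with a mean of at least 50 CPM. No protein sequences were used here.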

Additional observations from a re-analysis of the deposited data

How the results depend on the processing

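Under 27 alternatives each, Acta2 kept its negative sign in all (log2 fold changes -0.94 to -0.49) and Vim its positive sign in all (0.014 to 0.99). The Vim value of 0.99 was against Acta2 reads, and the Vim interval under every other setting spanned 0. No alternative took any of the 3 genes past the threshold, with adjusted p-values from 0.0979 for Acta2, 0.451 for Actb and 0.112 for Vim upward. For Acta2 on TMM-scaled CPM the shared sign follows from groups that do not overlap and is no sign of stability; against Actb reads the groups overlap. Actb turned positive in 5 of 27: 0.35 against Acta2 reads, which moves the median of all genes to 0.76, and, with a library left out, 0.011 (edgeR) and 0.019 (DESeq2) without sg-MIAT 1 and 0.061 and 0.071 without sg-U6 3. Leaving out 1 library in edgeR gave -0.93 to -0.63 for Acta2, -0.65 to 0.061 for Actb and 0.014 to 0.27 for Vim. The same gave -0.93 to 0.10 for the Acta2 to Actb ratio, -1.14 to -0.65 for Acta2 to Vim and -0.93 to 0.16 for Actb to Vim, on the log2 scale. Why these signs turned was not tested.

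With the replicate block, edgeR log2 fold changes were -0.78 for Acta2, -0.25 for Actb and 0.16 for Vim, and DESeq2 gave -0.77, -0.24 and 0.17. The block changed no call of the 3 genes. For the ratios, pairing by number leaves the differences as they were, and the exact sign-flip test over 3 pairs gave p = 0.25, the smallest it can give. Over all genes, edgeR called 3 with Acta2 reads as the library size and 0 under the other scalings, filters and left-out libraries run, limma called 0 in its 4 fits, and DESeq2 called 60, or 130 with the replicate block, and from 13 to 218 with 1 library left out: 13, 16 and 171 on omitting libraries 1, 2 and 3 of sg-MIAT, and 218, 13 and 39 on omitting those of sg-U6. The cause of the gap between tools was not tested. The DESeq2 fits with a library left out, the counts of calls with a single gene as the library size, the reads recovered from CPM, the test of the number and the CArG box with a substitution were added after seeing the data. Counting error of the 3 genes is under 1% in each library.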
